A study of Rattus norvegicus with 24 samples.

Results

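A set of 10 genes that mark neurite growth or nerve regeneration was followed across 8 groups of PC12 cells: Gap43, Stmn2, Stmn3, Sprr1a, Lgals3, Dpysl3, Crmp1, L1cam, Ncam1 and Plaur. The genes were taken by symbol, and all 10 stood among the 17055 genes of the count tables. PC12 cells derive from a rat adrenal tumour, the pheochromocytoma, and can be driven by nerve growth factor to grow neurites. The 2 stable lines held pcDNA3 without insert, called vector here, or human α1ACT in pcDNA3. α1ACT is the C-terminal fragment of the P/Q-type calcium channel gene CACNA1A that acts in the nucleus. Both lines were grown in the same serum-containing medium at passages 18 to 20. The labels name no added nerve growth factor or other agent and no event from which the times of 6 h, 24 h, 3 d and 10 d were counted. Each line and time had 3 libraries. Whether a line was 1 clone is not said. The replicates are called biological, but nothing states that they were grown apart, and p-values cover the spread among these libraries, which may be technical.

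The labels and the names of the deposited tables (which are separate from the titles and characteristics used as labels) disagreed in time for 18 of 24 libraries, and for 12 of these in line too, so results are read both ways. Groups are called by their labels. By the file names, vector 6 h and α1ACT 10 d are as labelled. The group labelled α1ACT 6 h is named as vector at 24 h, that labelled vector 24 h as vector at 3 d, and that labelled α1ACT 24 h as vector at 10 d. The group labelled vector 3 d is named as α1ACT at 6 h, that labelled α1ACT 3 d as α1ACT at 24 h, and that labelled vector 10 d as α1ACT at 3 d. A comparison of lines at a labelled time is thus, by the file names, a comparison of times within a line. Setting 3 d against 6 h, or 10 d against 24 h, inside a labelled line is by the file names α1ACT against vector at 1 time. Over 9994 tested genes, the groups joined by these last comparisons lay 0.185 to 0.222 apart as the root mean square difference of mean log2 CPM (CPM being counts scaled to a common library size), and the next closest groups 0.369 apart. A library held 8679560 to 14486248 counts assigned to genes, and 3 counts stood at 0.206 to 0.352 CPM. Of 12 chromaffin and PC12 markers 11 were listed, and all 11 exceeded 3 counts in every library. Their summed level was 18891 to 28800 CPM. The macrophage markers Ptprc and Aif1, the fibroblast markers Col1a2 and Lum, and the glial factor Sox10 had 0 counts in all libraries.

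A growing neurite ends in a growth cone, where membrane is added and microtubules and actin are rebuilt in response to guidance cues. Gap43 is a growth-cone membrane phosphoprotein, the stathmins Stmn2 and Stmn3 bind tubulin and destabilise microtubules, and the collapsin response mediators Dpysl3 and Crmp1 carry semaphorin signals to the cytoskeleton. L1cam and Ncam1 are immunoglobulin-family adhesion molecules on axons, and L1cam was described early in PC12 cells as a surface glycoprotein induced by nerve growth factor. Sprr1a, Lgals3 and Plaur belong to a response to injury: Sprr1a is a small proline-rich protein of keratinocytes that regenerating sensory neurons switch on, Lgals3 encodes the sugar-binding galectin-3, and Plaur encodes the receptor of the urokinase plasminogen activator.

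The 10 genes followed several patterns. Sprr1a and Lgals3 fell steeply from the labelled 6 h and 3 d to 24 h and 10 d, Plaur was highest in the vector line at 6 h and 3 d, Crmp1 fell over the same steps by smaller factors, Dpysl3 fell in 3 of these 4 comparisons, and the stathmins and adhesion genes followed other orders. Gap43 was close to undetected. Of the 10 genes 9 passed edgeR's filter on low counts, and Gap43 did not. Plaur passed it through the vector 6 h and 3 d groups, so its variation over the groups is in part set by the filter. All 9 varied over the 8 groups in the joint quasi-likelihood F-test (Benjamini-Hochberg adjusted p = 1.16e-18 to 1.43e-05), as did 89.5% of all tested genes, so that this count was close to the background. The highest group mean exceeded the lowest by 38.6-fold for Sprr1a, 20.3-fold for Lgals3 and 11.99-fold for Plaur. For the other 6 tested genes this ratio was 1.37 to 1.79. In RNA of whole cultures, a smaller share of cells that express a gene cannot be told apart from less RNA per cell.

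**Figure D1:**
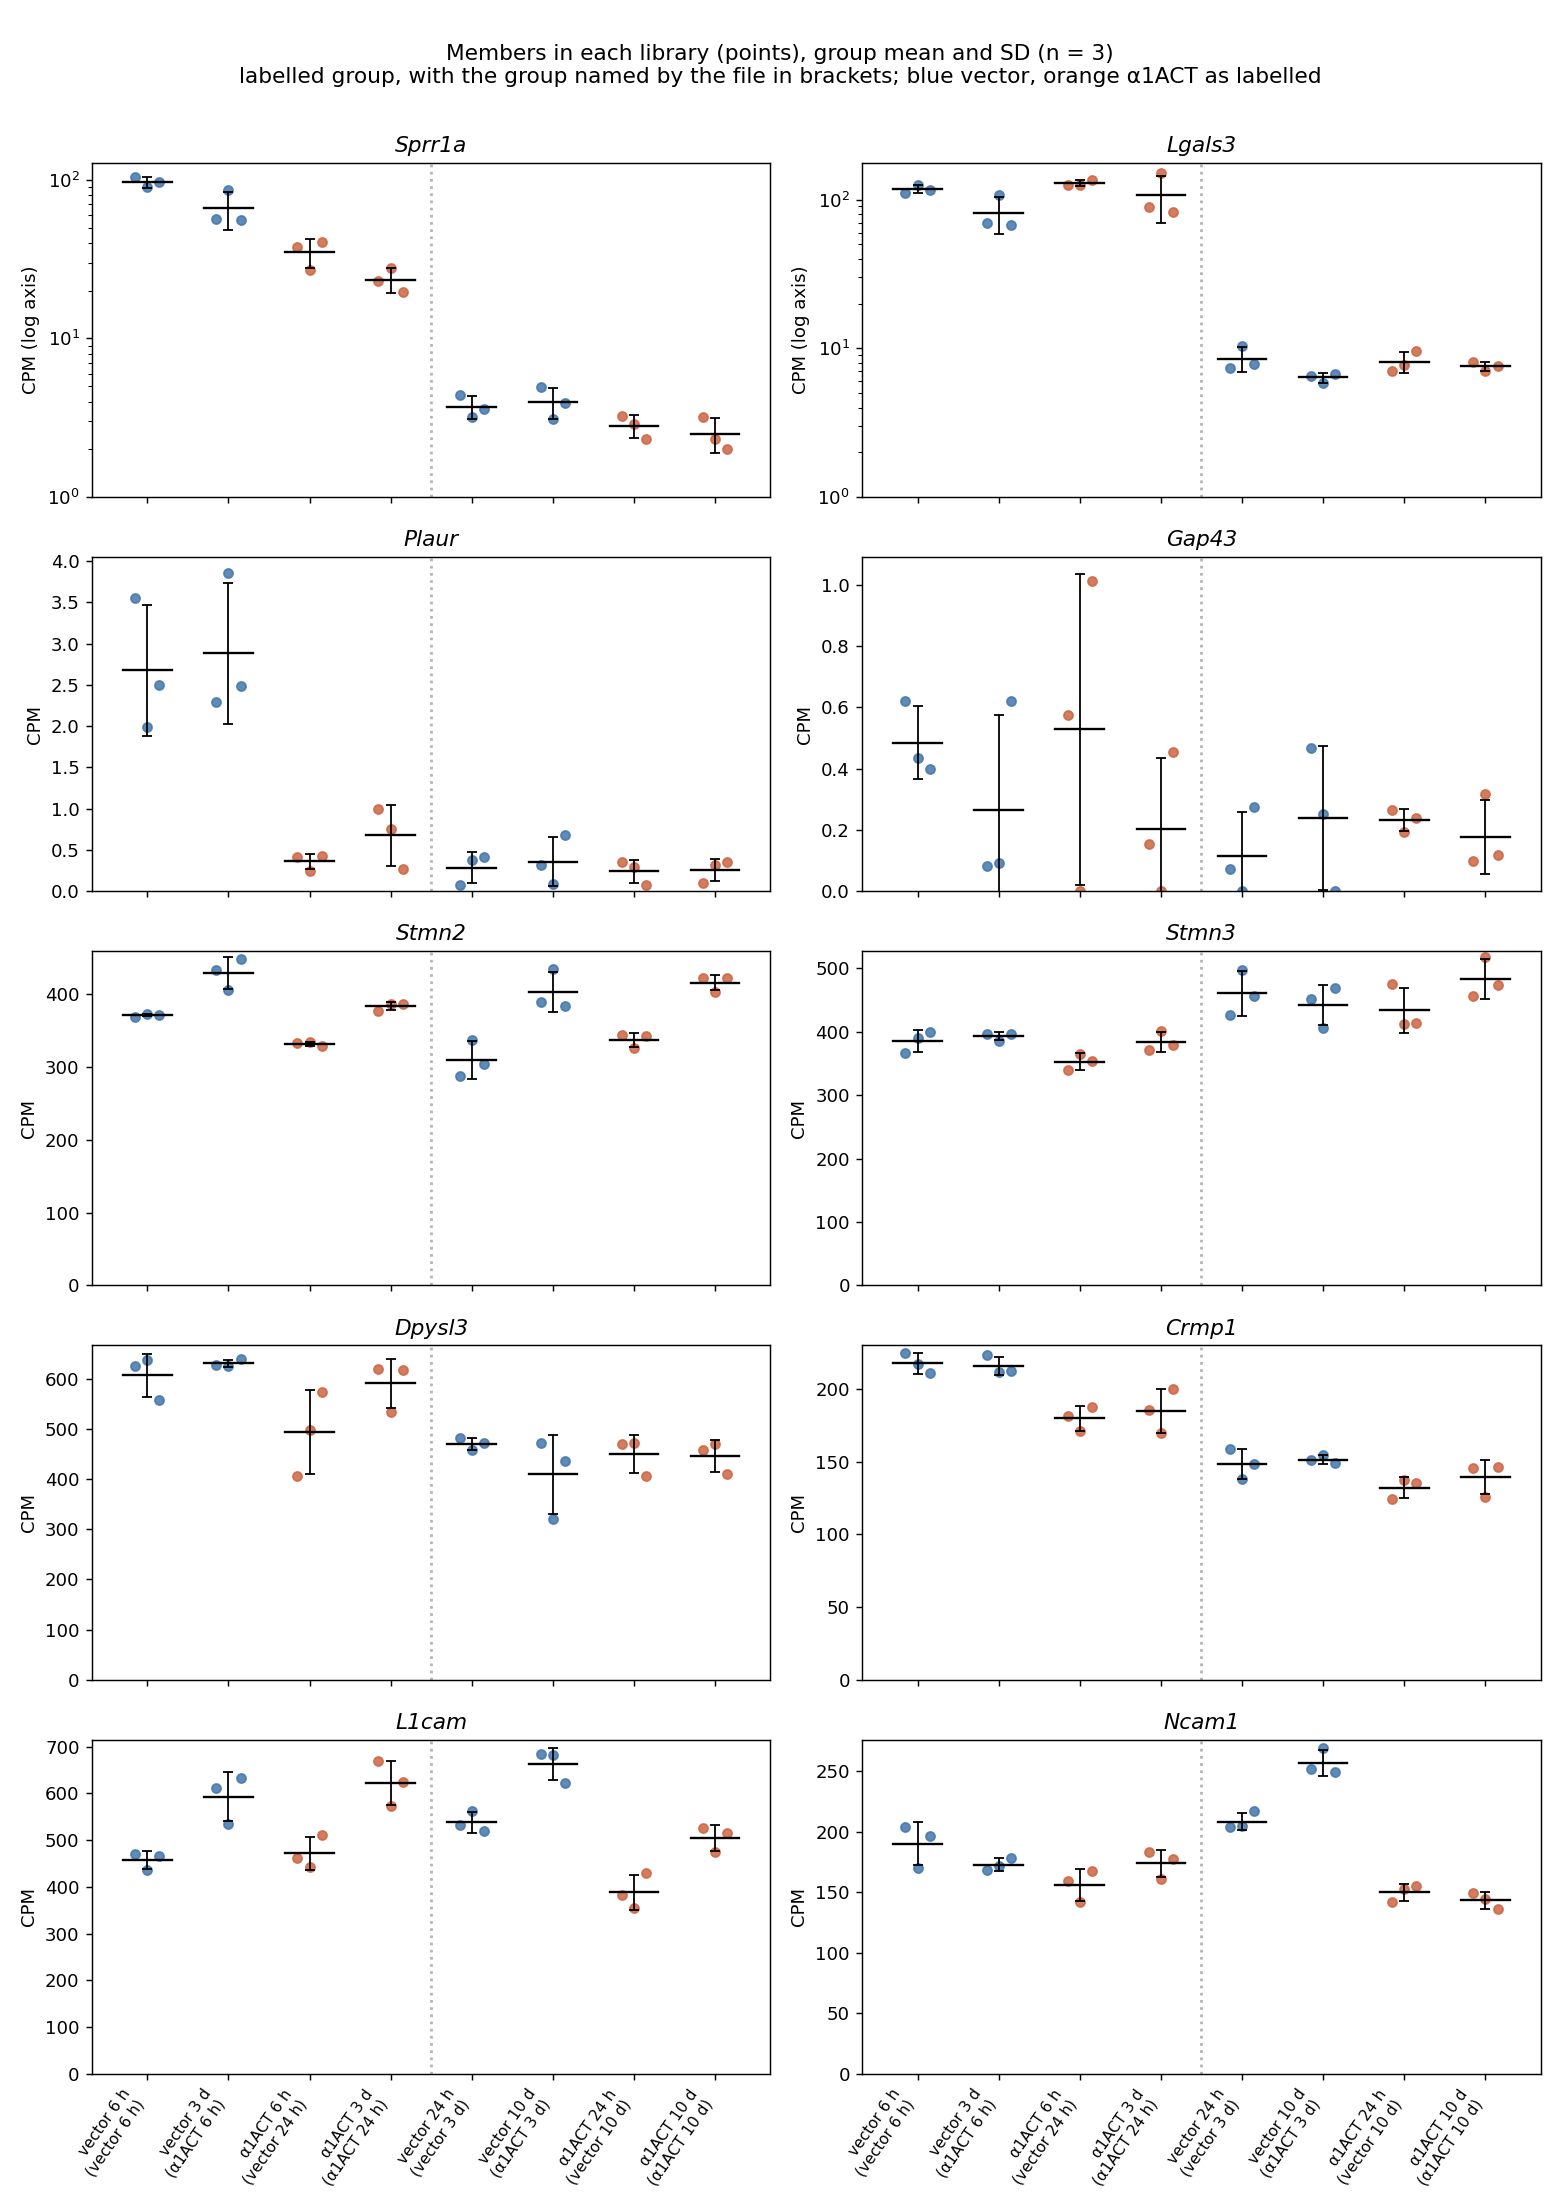
Level of each gene in CPM (log axis for Sprr1a and Lgals3, linear from 0 for the others) in the 24 libraries, by labelled group with the group of the file name in brackets. Points are libraries, bars the mean and SD of 3, and the dotted line parts 6 h and 3 d from 24 h and 10 d. Sprr1a and Lgals3 are high on the left and low on the right, Plaur is high in the first pair of groups, and L1cam and Stmn2 are higher in the right-hand group of each neighbouring pair.

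For Sprr1a and Plaur the RefSeq promoter table (assembly GRCr8, not the build of the counts) held stretches with AP-1 letters. That table had entries for 5 of the 10 genes. The motif TGANTCA, which dimers of Fos and Jun proteins bind, has the same form on both strands and was searched in the 250 bases before each start. Sprr1a held 2 matches, which begin 147 and 117 bases before the start, and Plaur held 1, which begins 83 bases before it. The windows of Stmn3, Dpysl3 and Crmp1 held none. Of 33469 windows there, 6.34% held at least 1 match and 0.311% at least 2. Crmp1 and Dpysl3 also fell from 6 h to 24 h in the vector line, as Sprr1a and Plaur did. The stretches with a match are shown with the matches in capitals, 5′ to 3′ on the strand of the gene. That of Sprr1a lies at chr2:180752626-180752875 on the minus strand and that of Plaur at chr1:89181113-89181362 on the plus strand. A match describes letters in a window and shows no binding.
Sprr1a: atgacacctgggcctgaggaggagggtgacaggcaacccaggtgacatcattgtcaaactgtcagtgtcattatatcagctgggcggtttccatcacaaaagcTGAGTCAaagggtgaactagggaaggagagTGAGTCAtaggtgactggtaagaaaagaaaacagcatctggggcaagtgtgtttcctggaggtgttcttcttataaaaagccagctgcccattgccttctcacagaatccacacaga
Plaur: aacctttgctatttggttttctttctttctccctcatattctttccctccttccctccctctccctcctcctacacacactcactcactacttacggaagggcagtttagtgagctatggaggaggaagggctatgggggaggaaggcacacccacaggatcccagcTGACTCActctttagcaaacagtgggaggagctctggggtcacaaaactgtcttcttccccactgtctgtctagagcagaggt

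Sprr1a was the most variable of the 10 genes. In the vector line its libraries stood at 105, 89.5 and 96.6 CPM at 6 h and at 56.2, 86.6 and 55.8 CPM at 3 d. In the α1ACT line they stood at 37.4, 26.8 and 40.7 CPM at 6 h and at 22.99, 27.9 and 19.6 CPM at 3 d. None of the 12 libraries labelled 24 h or 10 d exceeded 4.92 CPM, and none of the 12 labelled 6 h or 3 d was below 19.6 CPM. Among the 6 h and 3 d groups the order was vector 6 h, vector 3 d, α1ACT 6 h and α1ACT 3 d, and of these neighbours the α1ACT groups overlapped. Among the 24 h and 10 d groups, with means of 2.51 to 3.99 CPM, each group overlapped its neighbour. From 6 h to 24 h Sprr1a fell 25.9-fold in the vector line (-4.69 ± 0.20 on the log2 scale ± SE, edgeR adjusted p = 5.47e-16) and 12.4-fold in the α1ACT line (-3.64 ± 0.23, 4.98e-12). From 3 d to 10 d it fell 16.5-fold (-4.04 ± 0.20) and 9.24-fold (-3.21 ± 0.26). It was also lower in α1ACT than in vector at 6 h, by 2.77-fold (-1.47 ± 0.15, edgeR adjusted p = 1.73e-08), and at 3 d, by 2.81-fold (-1.49 ± 0.15, 4.31e-08). Read by file name, the level declined with time in both lines, from 6 h over 24 h to a low level at 3 d and 10 d. At 24 h and 10 d the differences between labelled lines (-0.41 ± 0.33 and -0.66 ± 0.36) did not pass, although that at 10 d did in DESeq2 (0.0403) and in a fit of its 6 libraries (0.0388). Vector 3 d against 6 h, by the file names α1ACT against vector at 6 h, gave -0.55 ± 0.14 (edgeR adjusted p = 0.0405), a call that ended in DESeq2 (0.178) and without vector 6 h replicate 1 (0.174), vector 6 h replicate 2 (0.0786), vector 6 h replicate 3 (0.101), vector 3 d replicate 1 (0.277) or vector 3 d replicate 3 (0.302). The same comparison in α1ACT gave -0.57 ± 0.16 and did not pass (0.0980), but passed with no filter on low counts (0.0146) and without α1ACT 6 h replicate 2 (0.0261) or α1ACT 3 d replicate 2 (0.0406). The summed level of the keratinocyte and epithelial list, of which 6 genes were in the tables and 5 had a count, moved with Sprr1a between 6 h and 24 h. It was 1481 to 1798 CPM at vector 6 h against 476 to 497 CPM at vector 24 h, and 924 to 1075 against 652 to 669 CPM at α1ACT 6 h and 24 h. Krt8, a keratin of simple epithelia, was its most abundant gene, and the basal keratin Krt5 had 0 counts. The part of these genes in the result was not tested.

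Lgals3 showed a step of like size in both lines. Its libraries stood at 111, 125 and 116 CPM at vector 6 h and 126, 126 and 135 CPM at α1ACT 6 h. At 3 d they stood at 69.8, 107 and 67.3 CPM in vector and 88.7, 150.3 and 82.5 CPM in α1ACT. The 24 h and 10 d libraries of both lines lay between 5.80 and 10.4 CPM, far below the lowest 6 h or 3 d library at 67.3 CPM. In both lines the second library of 3 d was the highest of its group. In the order of means α1ACT 6 h came first and vector 10 d last, each without overlap with its neighbour. The gap at the top was narrow, 125.7 against 125.1 CPM at vector 6 h. The α1ACT 6 h libraries also lay within the range of α1ACT 3 d. From 6 h to 24 h Lgals3 fell 13.9-fold in vector (-3.80 ± 0.20, edgeR adjusted p = 3.48e-14) and 15.8-fold in α1ACT (-3.98 ± 0.21, 1.87e-13). The fall from 3 d to 10 d was 12.7-fold and 14.1-fold. In the file-name reading both steps lie between 6 h and 3 d, or 24 h and 10 d, within a line. α1ACT exceeded vector at 3 d by 0.40 ± 0.16 (edgeR adjusted p = 0.0481), although the groups overlapped, and that call ended with RLE factors (0.0564), in DESeq2 (0.146), in a fit of its 6 libraries (0.127) and without vector 3 d replicate 1 (0.231), vector 3 d replicate 3 (0.211) or α1ACT 3 d replicate 2 (0.691). It did not pass at 6 h (0.14 ± 0.15), 24 h (-0.05 ± 0.28) or 10 d (0.25 ± 0.32). The comparisons of 3 d with 6 h did not pass either (-0.53 ± 0.16 in vector, adjusted p = 0.0971, and -0.27 ± 0.15 in α1ACT). With no filter on low counts the one in vector passed (adjusted p = 0.0174), and without vector 3 d replicate 2 (0.00641) it did as well, as did the one in α1ACT without α1ACT 3 d replicate 2 (0.0110). Macrophages are rich in galectin-3. Of their 6 markers 4 had any count, Cd68 nearly all of it, and their summed level was 0.704 to 3.45 CPM.

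Plaur was scarce, and its difference between lines was the largest of the set at the labelled 6 h. The vector libraries held 40, 23 and 25 counts at 6 h and 28, 42 and 24 at 3 d, against 5, 3 and 5 in α1ACT at 6 h and 13, 9 and 3 at 3 d. At 24 h and 10 d no library of either line held more than 9 counts. The vector 6 h and 3 d groups overlapped each other and no other group, while the 6 remaining groups overlapped their neighbours. Plaur passed the filter on low counts through those 2 groups, so that its place among the genes called between them and the others is in part set by the filter. The ratio of summed counts of vector to α1ACT, scaled for depth, was 7.43 (95% counting interval 4.13 to 14.5) at 6 h and 4.12 (95% counting interval 2.63 to 6.69) at 3 d. The fitted differences were -2.86 ± 0.46 (edgeR adjusted p = 2.13e-05) and -2.03 ± 0.40 (0.000227), with adjusted p = 1.88e-06 and 5.14e-05 when no filter was used. From 6 h to 24 h in vector the ratio of summed counts was 9.45 (95% counting interval 5.03 to 19.6), and from 3 d to 10 d 7.78 (95% counting interval 4.41 to 14.8). In α1ACT the change from 3 d to 10 d gave a ratio of 2.78 (95% counting interval 1.17 to 7.62) and did not pass the test (adjusted p = 0.0965), but it did without α1ACT 3 d replicate 3 (0.0394). The high groups are named as the 6 h groups of both lines, which differed by 0.10 ± 0.31 (adjusted p = 0.939).

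Gap43, the classic growth-cone gene of the set, had 77 counts over the 24 libraries. Single libraries held 0 to 12 counts, and 4 held none. By group the sums were 16, 5, 8 and 9 counts in vector at 6 h, 24 h, 3 d and 10 d, and 19, 8, 7 and 5 in α1ACT. Each group overlapped its neighbour in the order of means, and no test was made. The ratio of α1ACT to vector at 6 h was 1.08 (95% counting interval 0.527 to 2.25). The ratio of 6 h to 24 h in vector, the largest among the comparisons of this gene, was 3.78 (95% counting interval 1.32 to 13.2). In α1ACT it was 2.26 (95% counting interval 0.944 to 5.97). These intervals leave out the spread between replicates, which at α1ACT 6 h held 7, 0 and 12 counts. Other growth genes, named after their counts were seen, stood near this level: Sox11, St8sia2 and Gal were listed with 0 counts, and Marcks and Dcx with 2 each. Whether the gene models used for counting lost reads of these genes was not tested.

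The membrane-bound stathmins Stmn2 and Stmn3 followed different orders of the groups. Stmn2 stood at 369, 372 and 372 CPM at vector 6 h and at 433, 406 and 449 CPM at vector 3 d. In the α1ACT line it stood at 333, 334 and 328 CPM at 6 h and at 377, 386 and 387 CPM at 3 d. The later group was above the earlier one in each line with no overlap. At 24 h and 10 d the vector libraries stood at 287, 338 and 304 and 389, 434 and 384 CPM. The α1ACT libraries stood at 344, 326 and 342 and 422, 404 and 422 CPM. Here too 10 d was above 24 h in every library. The 4 highest groups, those labelled 3 d or 10 d, overlapped their neighbours in the order, and all 4 lay above the other 4. Stmn2 was higher at 3 d than at 6 h by 0.21 ± 0.05 in vector (edgeR adjusted p = 0.0399) and 0.21 ± 0.05 in α1ACT (0.0496), and at 10 d than at 24 h by 0.38 ± 0.05 (7.93e-05) and 0.30 ± 0.05 (0.00363). The file names make these rises of α1ACT over vector at each of the 4 times, the first pair at 6 h and 24 h and the second at 3 d and 10 d. The call at α1ACT 3 d ended with RLE factors (0.0612), at a minimum mean of 2 CPM (0.0526) and without any 1 of its 6 libraries, for α1ACT 6 h replicates 1, 2 and 3 and 3 d replicates 1, 2 and 3 in turn at 0.159, 0.152, 0.156, 0.169, 0.112 and 0.183. That at vector 3 d ended without vector 6 h replicate 1 (0.122), vector 6 h replicate 2 (0.113), vector 6 h replicate 3 (0.0927), vector 3 d replicate 1 (0.158) or vector 3 d replicate 3 (0.242). Between labelled lines Stmn2 differed by -0.16 ± 0.05 at 6 h (adjusted p = 0.0159), 0.12 ± 0.05 at 24 h (0.0481), -0.16 ± 0.05 at 3 d (0.0161) and 0.05 ± 0.05 at 10 d (0.457). Stmn2 fell from 6 h to 24 h in vector (-0.26 ± 0.05, 0.000123), and in α1ACT the difference was 0.02 ± 0.05. Between 3 d and 10 d neither -0.09 ± 0.05 in vector nor 0.12 ± 0.05 in α1ACT passed, although the former did without vector 3 d replicate 2 (0.0391) or vector 10 d replicate 2 (0.0141), and the latter in a fit of its 6 libraries (0.0398). With library sizes alone the line differences at 6 h and 3 d did not pass (0.0632 and 0.0513). That at 6 h also ended without vector 6 h replicate 2 (0.0505), vector 6 h replicate 3 (0.0537) or α1ACT 6 h replicate 3 (0.0630), that at 24 h in a fit of its 6 libraries (0.0709) and without vector 24 h replicate 1 (0.247), vector 24 h replicate 3 (0.117), α1ACT 24 h replicate 1 (0.115) or α1ACT 24 h replicate 3 (0.115), and that at 3 d without vector 3 d replicate 3 (0.0879).

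Stmn3 moved in the opposite direction to Sprr1a from 6 h to 24 h and from 3 d to 10 d in both lines. Its group means were 385 ± 17.1, 460.0 ± 35.6, 393 ± 6.02 and 442 ± 32.2 CPM in vector at 6 h, 24 h, 3 d and 10 d (SD, n = 3). In α1ACT they were 353 ± 13.3, 434 ± 35.5, 384 ± 15.3 and 482 ± 31.7 CPM. The 4 groups labelled 24 h or 10 d overlapped one another in order and lay above the other 4. Stmn3 rose from 6 h to 24 h by 0.26 ± 0.06 in vector (edgeR adjusted p = 0.00119) and 0.30 ± 0.06 in α1ACT (0.000496), and from 3 d to 10 d by 0.17 ± 0.06 (0.0222) and 0.33 ± 0.06 (0.000162). The call from 3 d to 10 d in vector ended without vector 3 d replicate 2 (0.0759), vector 10 d replicate 1 (0.0780) or vector 10 d replicate 3 (0.131). None of the 4 differences between labelled lines passed, and neither did those of 3 d with 6 h or 10 d with 24 h in either line. The difference at 10 d (0.13 ± 0.06) passed without vector 10 d replicate 3 (0.0476).

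Of the collapsin response mediators, Crmp1 fell from 6 h to 24 h and from 3 d to 10 d in both lines, and Dpysl3 in 3 of these 4 comparisons. Crmp1 was at 225, 217 and 211 CPM at vector 6 h and at 158, 138 and 148 CPM at vector 24 h. In α1ACT it was at 181, 171 and 188 CPM at 6 h and at 124, 137 and 135 CPM at 24 h. No library of 24 h reached one of 6 h in either line. The fall was 1.47-fold in vector (-0.55 ± 0.06, edgeR adjusted p = 2.79e-08) and 1.36-fold in α1ACT (-0.45 ± 0.06, 3.26e-06). From 3 d to 10 d it was -0.51 ± 0.06 and -0.41 ± 0.06. Crmp1 was lower in α1ACT than in vector at 6 h (-0.27 ± 0.06, 0.000982), 24 h (-0.17 ± 0.06, 0.0279) and 3 d (-0.22 ± 0.06, 0.00600), and at 10 d the difference of -0.12 ± 0.06 did not pass. The call at 24 h ended in a fit of the 6 libraries alone (0.0751) and without vector 24 h replicate 1 (0.184), vector 24 h replicate 3 (0.0630) or α1ACT 24 h replicate 1 (0.159), and that at 3 d without α1ACT 3 d replicate 2 (0.0570). Its order was vector 6 h and 3 d, then α1ACT 3 d and 6 h, then the vector and last the α1ACT groups of 10 d and 24 h, with overlap within the first and second pairs and among the last 4 groups. As the files are named, this is the order of time, 6 h, 24 h, 3 d and 10 d, with the 2 lines side by side at each. Lines at 1 time by the file names differed by -0.01 to 0.08 on the log2 scale, and none of these passed.

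Dpysl3 had the same direction with more spread. Its group means were 607 ± 43.0 and 631 ± 7.74 CPM in vector and 493 ± 83.8 and 591 ± 48.9 CPM in α1ACT at 6 h and 3 d. At 24 h and 10 d they were 470.4 ± 11.98 and 409.8 ± 78.6 CPM in vector and 449.5 ± 38.1 and 446 ± 31.3 CPM in α1ACT. All neighbouring groups in the order overlapped. It fell from 6 h to 24 h in vector (-0.37 ± 0.11, edgeR adjusted p = 0.00428) and from 3 d to 10 d in vector (-0.62 ± 0.11, 1.68e-05) and α1ACT (-0.41 ± 0.11, 0.00327). From 6 h to 24 h in α1ACT the difference was -0.13 ± 0.11 and did not pass. The lower level in α1ACT at 6 h (-0.30 ± 0.11, 0.0261) did not pass with library sizes alone (0.0590) or without vector 6 h replicate 1 (0.0875), vector 6 h replicate 2 (0.106), α1ACT 6 h replicate 1 (0.162) or α1ACT 6 h replicate 2 (0.0602).

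L1cam was higher at 3 d than at 6 h and at 10 d than at 24 h in each labelled line. The vector libraries stood at 471, 436 and 467 CPM at 6 h and at 611, 534 and 634 CPM at 3 d. The α1ACT libraries stood at 461, 444 and 510.3 CPM at 6 h and at 668, 573 and 625 CPM at 3 d. The later group was higher in each line without overlap. At 24 h and 10 d vector was at 533, 562 and 519 and at 684, 682 and 623 CPM. α1ACT was at 383, 355 and 429 and at 527, 474 and 516 CPM at these times. Again no library of 24 h reached one of 10 d in the same line. L1cam was higher at 3 d than at 6 h by 0.37 ± 0.07 in vector (edgeR adjusted p = 0.00741) and by 0.40 ± 0.07 in α1ACT (0.00385), and at 10 d than at 24 h by 0.30 ± 0.07 (0.0106) and 0.38 ± 0.07 (0.00714). By the file names, α1ACT exceeded vector by 1.29-fold at 6 h, 1.32-fold at 24 h, 1.23-fold at 3 d and 1.299-fold at 10 d. These 4 calls held under RLE factors, library sizes alone, both other filters, DESeq2, the replicate block and fits of 6 libraries. The call of vector 3 d ended without vector 6 h replicate 2 (0.0577), vector 3 d replicate 1 (0.0501) or vector 3 d replicate 3 (0.0717), that of α1ACT 3 d without α1ACT 3 d replicate 1 (0.0599), that of vector 10 d without vector 24 h replicate 3 (0.0682) or vector 10 d replicate 2 (0.05002), and that of α1ACT 10 d without α1ACT 24 h replicate 2 (0.0575) or α1ACT 10 d replicate 1 (0.0511). In the order of means vector 10 d came first, then α1ACT 3 d, vector 3 d, vector 24 h, α1ACT 10 d, α1ACT 6 h, vector 6 h and α1ACT 24 h, of which only the last did not overlap its neighbour. Between labelled lines, L1cam was lower in α1ACT at 24 h (-0.47 ± 0.07, 5.21e-06) and 10 d (-0.39 ± 0.07, 4.79e-05), and the differences at 6 h (0.04 ± 0.07) and 3 d (0.07 ± 0.07) did not pass. L1cam rose from 6 h to 24 h in vector (0.23 ± 0.07, 0.00716) and fell in α1ACT (-0.28 ± 0.07, 0.00308). It fell from 3 d to 10 d in α1ACT (-0.30 ± 0.07, 0.00143), and in vector the difference of 0.16 ± 0.07 (0.0515) passed only without vector 3 d replicate 3 (0.0282) or vector 10 d replicate 3 (0.0319), with library sizes alone (0.0423), with no filter (0.0418) or with the replicate block (0.0238).

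Ncam1 peaked in the vector line at 10 d. Its libraries there stood at 251, 269 and 249 CPM, above all others. The vector 24 h libraries stood at 204, 204 and 217 CPM and those of vector 6 h and 3 d at 204, 169.9 and 196 and 168, 171 and 179 CPM. α1ACT libraries lay between 136 and 183 CPM over the 4 times. At 6 h, 24 h and 10 d the lines did not overlap, and at 3 d they did. Ncam1 was lower in α1ACT than in vector by 1.79-fold at 10 d (-0.84 ± 0.07, edgeR adjusted p = 8.01e-11), 1.39-fold at 24 h (-0.48 ± 0.07, 1.02e-06) and 1.22-fold at 6 h (-0.28 ± 0.07, 0.00130), and at 3 d the difference was 0.01 ± 0.07 (0.909). Ncam1 rose from 3 d to 10 d in vector (0.57 ± 0.07, 3.02e-08) and fell in α1ACT (-0.28 ± 0.07, 0.00148). Its differences from 6 h to 24 h of 0.13 ± 0.07 and -0.06 ± 0.07 did not pass, although the one in vector did without vector 6 h replicate 1 (0.0321). The line differences at 24 h and 10 d are, by the file names, falls from 3 d to 10 d within a line. Read as lines at 1 named time, Ncam1 was higher in α1ACT at 3 d (0.30 ± 0.06, 0.00527), and at 6 h, 24 h and 10 d the differences of -0.14 ± 0.07, 0.15 ± 0.07 and -0.06 ± 0.07 did not pass.

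Counted over the labelled lines, 6 of the 9 tested genes were lower and none higher in α1ACT at 6 h (Plaur, Sprr1a, Dpysl3, Ncam1, Crmp1 and Stmn2), where 21.2% of all tested genes were lower and 20.5% higher by edgeR's adjusted p. Either way 41.6% of all genes passed. Plaur passed the filter on low counts through the vector 6 h and 3 d groups, so its calls at 6 h and 3 d are in part set by the filter. At 24 h 3 were lower (Ncam1, L1cam and Crmp1) and 1 higher (Stmn2), against 28.8% and 26.6% of all genes, 55.5% together. At 3 d 4 were lower (Plaur, Sprr1a, Crmp1 and Stmn2) and 1 higher (Lgals3), against 19.4% and 19.9%, 39.4% together. At 10 d 2 were lower (Ncam1 and L1cam) and none higher, against 29.4% and 29.5%, 58.9% together. The median log2 difference of the 9 genes was -0.27, -0.17, -0.09 and -0.12 at 6 h, 24 h, 3 d and 10 d, beside 0.00, -0.02, 0.01 and 0.01 for all tested genes. The 4 comparisons use separate libraries but share the fit and its estimate of the spread. The difference between lines varied over the times in 4 of the 9 genes (Stmn2, Sprr1a, L1cam and Ncam1), a test that 57.7% of all genes passed. Leaving out 1 library moved their counts of either direction to 4 to 5, 2 to 4, 3 to 5 and 2 to 3.

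**Figure D2:**
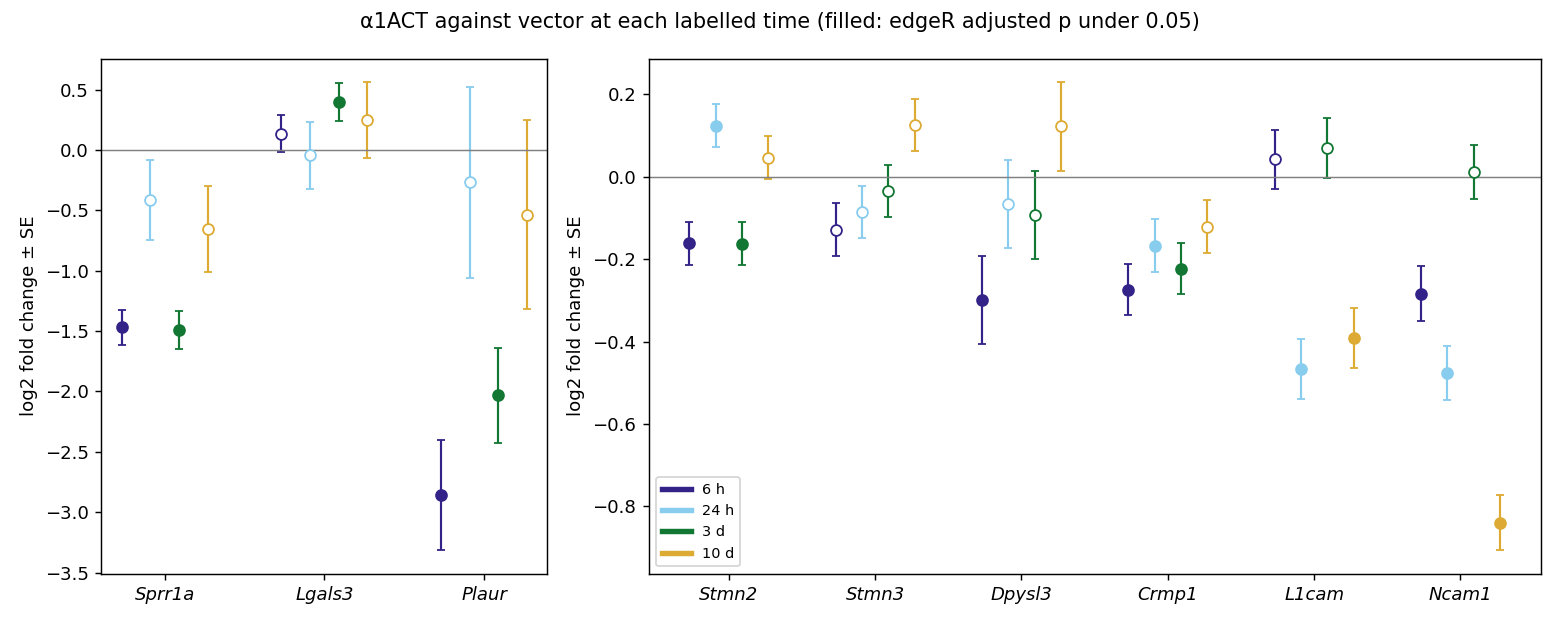
Log2 fold change ± SE of α1ACT against vector at each labelled time for the 9 tested genes, with a separate scale for the 3 injury genes. Filled points passed the edgeR threshold. Sprr1a and Plaur lie lowest at 6 h and 3 d, and L1cam and Ncam1 lowest at 24 h and 10 d.

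Counted over time within a labelled line, the most genes of the set passed between 6 h and 24 h in vector. There 6 of 9 genes fell (Sprr1a, Lgals3, Plaur, Crmp1, Dpysl3 and Stmn2) and 2 rose (Stmn3 and L1cam). Of all genes 29.9% fell and 31.6% rose in that comparison, 61.5% together. From 3 d to 10 d in vector 5 fell (Sprr1a, Lgals3, Plaur, Dpysl3 and Crmp1) and 2 rose (Ncam1 and Stmn3), against 31% and 33.2%, 64.2% together. In α1ACT 4 fell from 6 h to 24 h (Lgals3, Sprr1a, Crmp1 and L1cam) and 1 rose (Stmn3), against 22.4% and 21.7%, 44.1% together. From 3 d to 10 d in α1ACT 6 fell (Lgals3, Sprr1a, Crmp1, Dpysl3, L1cam and Ncam1) and 1 rose (Stmn3), against 22.8% and 21.8%, 44.6% together. The median log2 difference of the 9 genes was larger from 3 d to 10 d (-0.51 in vector, -0.41 in α1ACT) than from 6 h to 24 h (-0.37 and -0.28). For all tested genes these medians were 0.02, 0.00, 0.02 and 0.00. The file names make these comparisons of 3 d with 6 h and of 10 d with 24 h within a line. Each shares a group with a comparison of lines above, so their values are not independent of it. The 2 calls of Plaur in vector are in part set by the filter on low counts, as above.

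The comparisons that the file names read as α1ACT against vector at 1 time changed few genes of the whole table and 2 or 3 of the 9 tested here. At vector 3 d against 6 h 2 genes were higher (L1cam and Stmn2) and 1 lower (Sprr1a), against 1.14% and 0.33% of all genes, 1.47% together. At α1ACT 3 d against 6 h 2 were higher (L1cam and Stmn2) and none lower, against 0.8% and 0.26%, 1.06% together. At vector 10 d against 24 h 3 were higher (Stmn2, L1cam and Ncam1) and none lower, against 4.29% and 3.15%, 7.44% together. At α1ACT 10 d against 24 h 2 were higher (L1cam and Stmn2) and none lower, against 2.21% and 2.41%, 4.62% together. L1cam and Stmn2 passed in all 4, which use separate libraries but share the fit and its estimate of the spread. Leaving out 1 library moved these counts to 0 to 4, 0 to 3, 2 to 3 and 1 to 2.

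**Figure D3:**
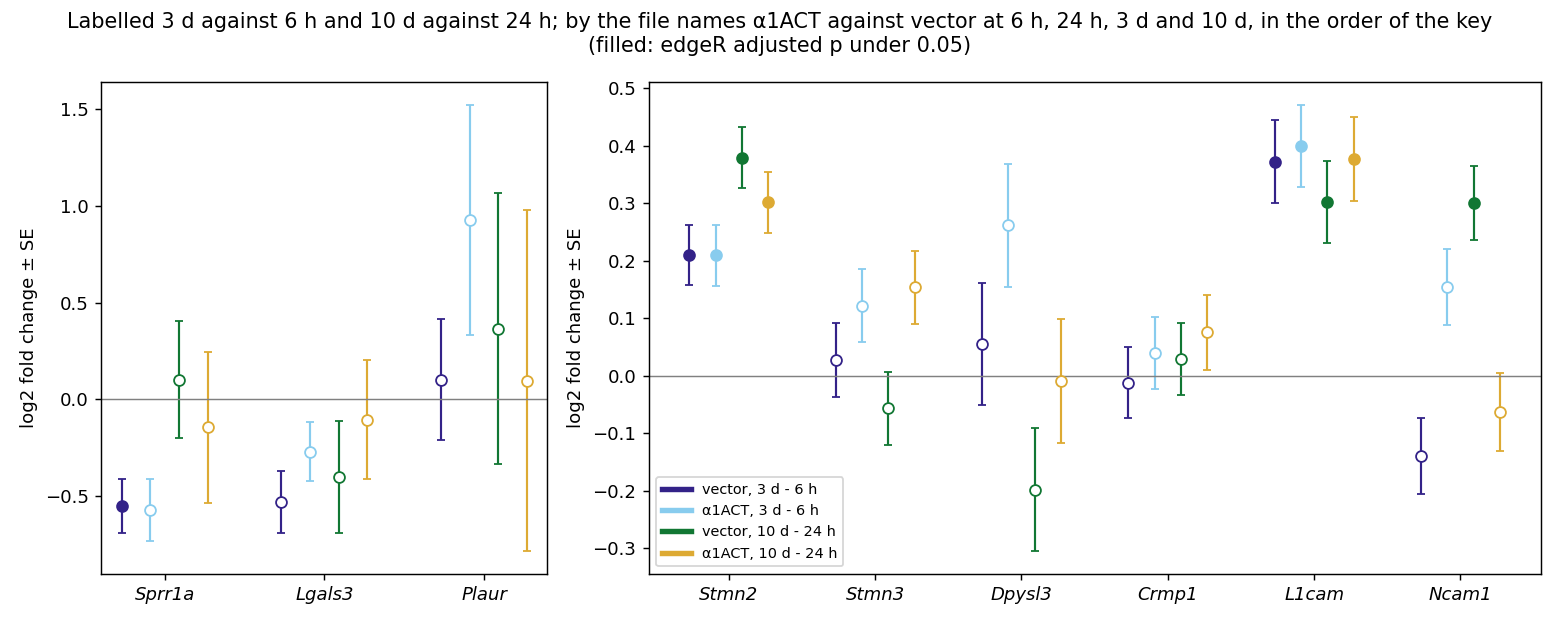
Log2 fold change ± SE of the labelled 3 d against 6 h and 10 d against 24 h in each line, which by the file names are α1ACT against vector at 6 h, 24 h, 3 d and 10 d in the order of the key. Filled points passed the edgeR threshold. L1cam and Stmn2 are above 0 in all 4 comparisons, and Crmp1 lies near 0.

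A wider list of 76 genes of neurite growth and regeneration, sorted by role, gives the surroundings of these 10. Of its 74 listed genes 51 were tested. α1ACT was higher in 6 and lower in 20 of them at 6 h, where 20.5% and 21.2% of all genes were. It was higher in 10 and lower in 22 at 24 h (26.6% and 28.8% of all genes), in 8 and 19 at 3 d (19.9% and 19.4%), and in 8 and 20 at 10 d (29.5% and 29.4%). The median log2 differences of the 51 were -0.19, -0.14, -0.15 and -0.11, beside 0.00, -0.02, 0.01 and 0.01 for all genes. In vector, 28 fell and 13 rose from 6 h to 24 h (29.9% and 31.6% of all genes), and 23 fell and 13 rose from 3 d to 10 d (31% and 33.2%). In α1ACT, 23 fell and 5 rose in the former (22.4% and 21.7%), and 26 fell and 9 rose in the latter (22.8% and 21.8%). Stmn4, counted among these falls, passed the filter on low counts through the 6 h and 3 d groups. In the comparisons read as lines by the file names, 1 rose and none fell at 3 d against 6 h in vector (1.14% and 0.33% of all genes), and 3 rose and none fell in α1ACT (0.8% and 0.26%). At 10 d against 24 h 14 rose and 4 fell in vector (4.29% and 3.15%), and 4 rose and 1 fell in α1ACT (2.21% and 2.41%).

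Several injury genes fell where Sprr1a fell. Single genes of the wider list were not tested again with libraries left out. Of 14 tested genes of nerve injury and regeneration 9 fell and 4 rose from 6 h to 24 h in vector, against 29.9% and 31.6% of all genes. In α1ACT 6 fell and 1 rose, against 22.4% and 21.7%. Those that rose in vector, named after their values were seen, were Ngfr (0.93 ± 0.09), Gadd45a (0.84 ± 0.15), Cacna2d1 (0.52 ± 0.08) and Tubb3 (0.19 ± 0.08). Dclk1, a microtubule-binding kinase, went from 95.5 ± 7.66 to 5.24 ± 1.15 CPM (-4.16 ± 0.19, edgeR adjusted p = 2.29e-15). Tnfrsf12a, the receptor of the cytokine TWEAK, went from 151 ± 3.42 to 17.3 ± 2.27 CPM (-3.11 ± 0.13). Vgf, a secreted neuropeptide precursor, went from 868 ± 116 to 127 ± 16.4 CPM (-2.77 ± 0.19). All 3 were also lower in α1ACT than in vector at 6 h and 3 d. At 24 h and 10 d Dclk1 (1.70 ± 0.23 and 1.60 ± 0.26) and Tnfrsf12a (0.92 ± 0.15 and 0.62 ± 0.15) were higher in α1ACT, which Sprr1a was not. The regeneration factor Jun, a subunit of AP-1, fell in both lines, from 123 ± 5.44 to 57.2 ± 8.55 CPM in vector and from 65.8 ± 7.999 to 29.3 ± 2.46 CPM in α1ACT. Atf3, a stress-induced factor of axotomised neurons, rose over the same steps, from 7.15 ± 1.09 to 18.7 ± 4.40 CPM in vector (1.38 ± 0.19). It reached 30.5 ± 0.790 CPM at vector 10 d and was lower in α1ACT at each labelled time. Klf4, which restrains axon growth in retinal neurons, was lower in α1ACT at 6 h (-1.79 ± 0.21) and 3 d (-1.79 ± 0.20), and did not pass at 24 h (-0.05 ± 0.20) or 10 d (-0.11 ± 0.18). Of 10 tested factors 6, 8, 5 and 7 were lower in α1ACT at 6 h, 24 h, 3 d and 10 d, and 1, 0, 0 and 0 higher. Of all genes 21.2%, 28.8%, 19.4% and 29.4% were lower at these times, and 20.5%, 26.6%, 19.9% and 29.5% higher.

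Partners of Plaur were measured unevenly. Plau, which encodes its ligand urokinase, was listed with 0 counts in all libraries, and plasminogen (Plg) had 26 counts in total. Plat, the tissue plasminogen activator, was at 42.9 ± 3.75 CPM at vector 6 h and 18.2 ± 3.35 CPM at vector 24 h (-1.23 ± 0.14), but at 33.0 ± 3.56 and 30.0 ± 3.23 CPM in α1ACT (-0.14 ± 0.13, adjusted p = 0.404). Lrp1, an endocytic receptor that clears plasminogen activators, rose from 6 h to 24 h in vector (0.42 ± 0.15) and fell in α1ACT (-1.17 ± 0.16).

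Relatives of the stathmins, mediators and galectins varied. Stmn4, the scarce neural stathmin, dropped from 7.03 ± 0.678 to 0.383 ± 0.0923 CPM in vector and from 2.88 ± 0.634 to 0.440 ± 0.305 CPM in α1ACT from 6 h to 24 h, in the direction of Sprr1a and against Stmn3. The lower levels are near that of 3 counts. Stmn4 passed the filter on low counts through the 6 h and 3 d groups, so its falls are in part set by the filter. The cytosolic Stmn1 stayed between group means of 440.4 and 553 CPM. Basp1, a growth-cone protein of the Gap43 kind, fell from 85.6 ± 9.48 to 48.7 ± 4.83 CPM in vector (-0.81 ± 0.11), while Cdk5r1 went from 2.45 ± 0.402 to 1.499 ± 0.251 CPM (-0.70 ± 0.27) and Camk2b did not pass the joint test. Dpysl2 had group means of 1618 to 1947 CPM and Dpysl5 of 4.14 to 8.503 CPM, both lowest at α1ACT 24 h as Crmp1 was. Lgals1 fell with Lgals3 from 6 h to 24 h in vector (-0.82 ± 0.07) and α1ACT (-0.43 ± 0.07), as did Lgals9 (-0.70 ± 0.08 and -0.34 ± 0.08), and both were higher in α1ACT at all 4 labelled times. Lgals3bp rose in vector (0.35 ± 0.06).

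Of the 4 tested adhesion relatives of L1cam and Ncam1, Ncam2 was higher at 3 d than at 6 h in vector (31.3 ± 6.18 against 21.8 ± 2.15 CPM, 0.52 ± 0.12, edgeR adjusted p = 0.0275) and α1ACT (0.56 ± 0.12, 0.0184), and at 10 d than at 24 h in vector (0.45 ± 0.13, 0.0275). Nrcam, a receptor of the L1 family, was higher at 10 d than at 24 h in vector (129 ± 12.4 against 92.2 ± 14.8 CPM, 0.49 ± 0.13, 0.0247), and differences of 0.52 ± 0.15, 0.57 ± 0.15 and 0.29 ± 0.14 in the other comparisons of this kind did not pass. Cntn2 passed in none of the 4. Among genes that limit growth, Rtn4rl1, a relative of the Nogo receptor, was higher in α1ACT at 6 h (0.92 ± 0.09) and 3 d (0.96 ± 0.09), the times at which the GTPase Rhoa was lower (-0.42 ± 0.06 and -0.38 ± 0.06). The Nogo receptor Rtn4r itself had 138 counts in total.

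**Figure D4:**
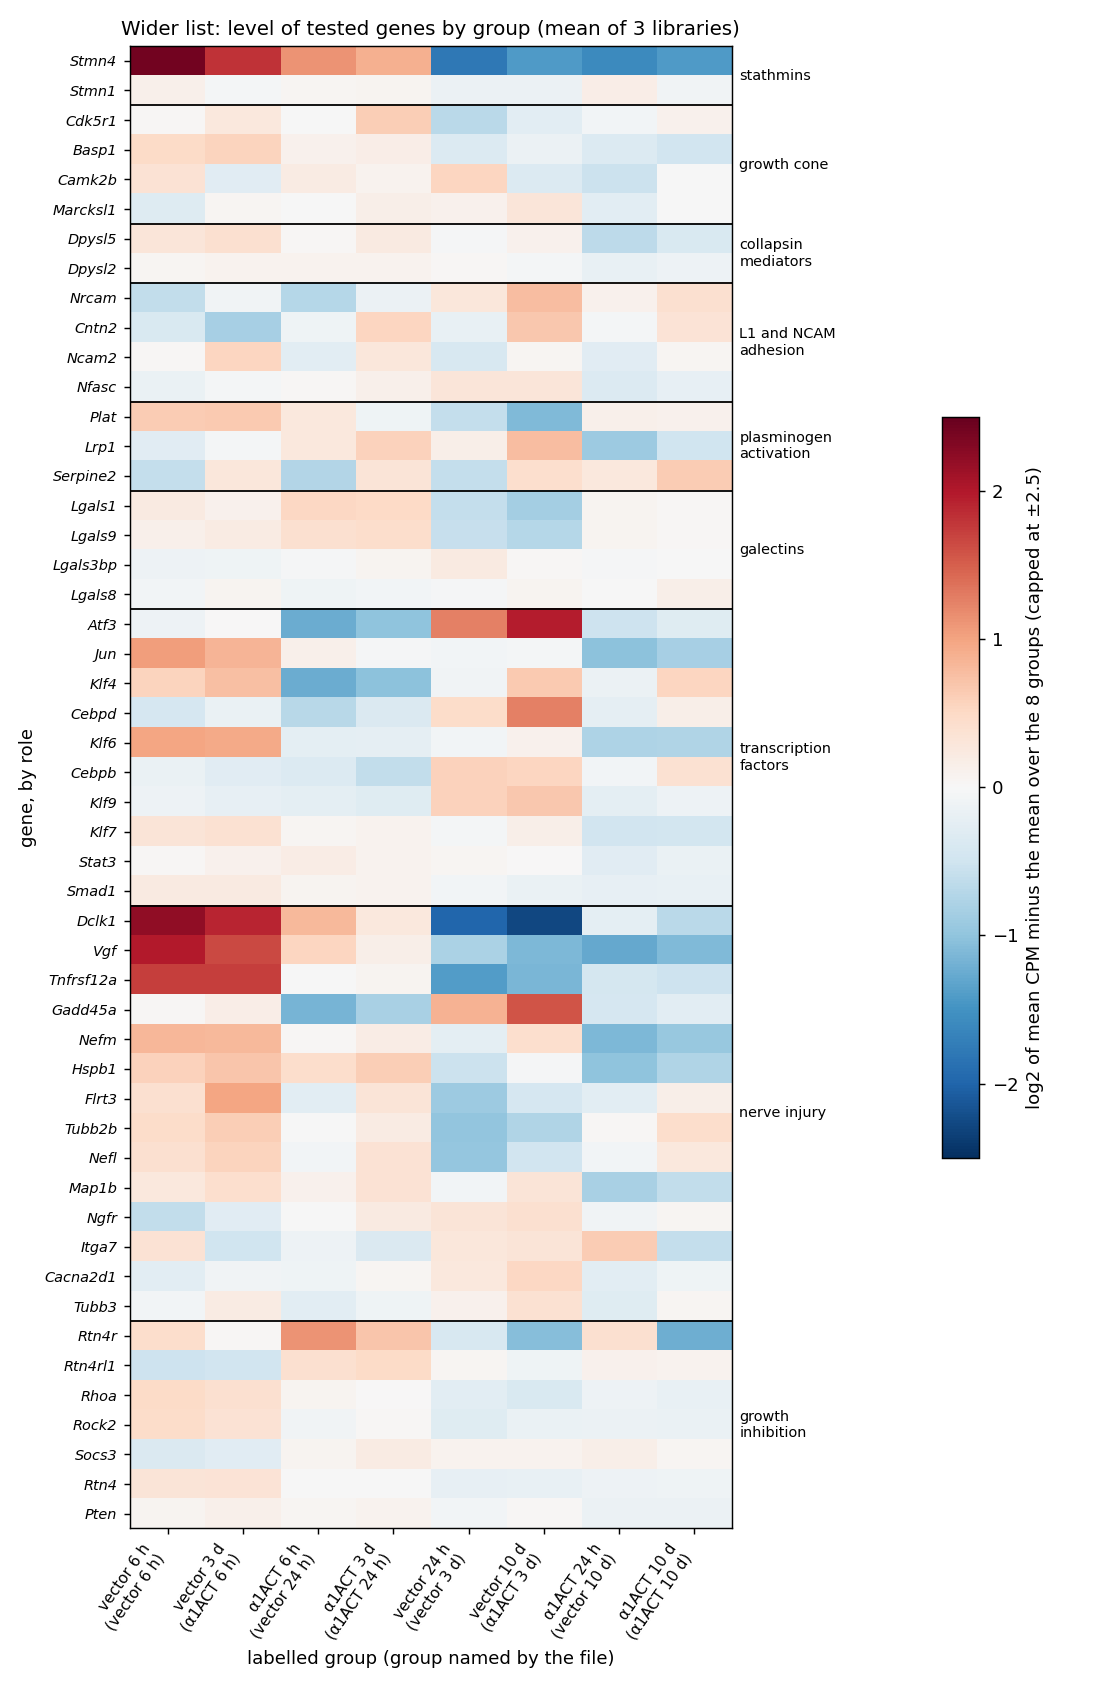
Level of the tested genes of the wider list that are reported, in the 8 groups, as log2 of the mean CPM of 3 libraries minus the mean over groups (colour, capped), with genes ordered by role. The first 4 columns are the groups labelled 6 h and 3 d and the last 4 those labelled 24 h and 10 d. Dclk1, Vgf and Stmn4 lie above their mean on the left and below it on the right. Tnfrsf12a is red in the vector groups of 6 h and 3 d and near its mean in the α1ACT groups of these times. Atf3 is highest in the vector groups of 24 h and 10 d.

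Across the 24 libraries, the log2 levels of Sprr1a correlated with those of Crmp1 (Pearson r = 0.942), Lgals3 (0.936), Plaur (0.808) and Dpysl3 (0.767), and with Stmn3 at -0.761. L1cam correlated with Ncam1 at 0.609 and with Stmn2 at 0.499, and with Sprr1a at 0.0521. These values describe libraries that share 8 groups, and no p is given. Among 9308 other tested genes with a mean of at least 2 CPM, the patterns most like Sprr1a were those of Mtmr11 (r = 0.979) and Glul (r = 0.974). For Lgals3 they were Zfp395 (r = 0.968) and Emp3 (r = 0.961), and for Plaur Tmem43 (r = 0.938) and Map2k4 (r = 0.937). Those nearest to Stmn2 were Pmp22 (r = 0.919) and Syn2 (r = 0.836), and to Stmn3 Nr2c2ap (r = 0.931) and Yrdc (r = 0.921). Dpysl3 was closest to Gpd1l (r = 0.896) and Atl1 (r = 0.870), and Crmp1 to Slc35e3 (r = 0.969) and Midn (r = 0.959). For L1cam they were Cnksr2 (r = 0.947) and Capn5 (r = 0.874), and for Ncam1 Pdzd8 (r = 0.934) and Zc3hav1 (r = 0.933).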

How the data were processed

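Total RNA of the PC12 lines was sequenced in 24 libraries after depletion of ribosomal RNA with a stranded kit, per the labels' protocols. The deposited files hold counts per gene symbol, 1 file per library. Per the submitters' processing notes, the genome build was rn5 and the tools included HTSeq 0.5.4p5 and TopHat2 2.0.10, with FastQC 0.11.2, Picard 1.117 and edgeR beside them. Not given in the sources used here are the annotation, the strand setting and the handling of duplicates and multiply placed reads, so genes that overlap others or have close copies may be miscounted. Reads that HTSeq assigned to no feature were left out of library sizes. They made up 47.8 to 52.9% of the gene, no-feature and ambiguous counts of a file together.

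Counts were analysed in edgeR 4.0.16 (R 4.3.3, limma 3.58.1) by quasi-likelihood F-tests with TMM scaling and 1 coefficient per labelled group over all 24 libraries, after filterByExpr at a minimum count of 10 and a minimum total of 15. P-values were adjusted by Benjamini-Hochberg over the 9994 tested genes, with a threshold of 0.05. The SE of a log2 fold change is its size divided by the square root of F. CPM use TMM-scaled sizes, and log2 levels for correlations a prior count of 2. Ratios of summed counts for scarce genes carry exact 95% intervals that cover counting error only. Alternatives were RLE factors, library sizes alone, no filter, a mean of at least 2 CPM, DESeq2 1.42.0, the replicate block, fits of 6 libraries, and leaving out each library. The fits were tested on simulated data, in which chosen genes were raised in the α1ACT 6 h group alone and libraries were drawn independently. This does not cover changes of many genes in both directions or a spread shared between libraries.

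The 10 genes and the lists were chosen with earlier results of these data known. All 10 are named, and per role of the wider list up to 3 tested genes with the widest range of group means, plus Plau, Plat, Stmn1, Stmn4, Dpysl2, Basp1 and Atf3. A gene of the wider list that this rule names is not reported here. Likeness names the 2 genes of highest correlation over the 24 libraries. The test of a difference between times in the line effect was added after the data were seen. Replicates of a group differed by more than counting noise (chi-square per degree of freedom 1.87 to 9.99). In every group replicates 1 and 3 were the closest pair, and replicate 2 stood farther from both. At vector 10 d the value was 2.85 for replicates 1 and 3, against 9.99 and 6.53 for the pairs with replicate 2. The main fit had no term for the replicate number. Replicate numbers come from the labels, and no label ties equal numbers to a shared culture or day.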

Additional observations from a re-analysis of the deposited data

Results flagged for a closer look

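The difference between α1ACT and vector varied over the 4 labelled times in 4 of the 9 tested genes, by an edgeR test of that variation adjusted over all genes, which 57.7% of all tested genes passed. For Ncam1 the adjusted p was 2.00e-07: the log2 difference was -0.28 ± 0.07 at 6 h, -0.48 ± 0.07 at 24 h, 0.01 ± 0.07 at 3 d and -0.84 ± 0.07 at 10 d. For L1cam it was 3.02e-05, with 0.04 ± 0.07, -0.47 ± 0.07, 0.07 ± 0.07 and -0.39 ± 0.07 at the same times. For Stmn2 it was 0.00205, with -0.16 ± 0.05, 0.12 ± 0.05, -0.16 ± 0.05 and 0.05 ± 0.05, and the result was lost without the libraries of replicate 1 (0.0980) or 3 (0.167). For Sprr1a it was 0.0307, with -1.47 ± 0.15, -0.41 ± 0.33, -1.49 ± 0.15 and -0.66 ± 0.36, and it was lost without replicate 1 (0.130) or 3 (0.0516). By the file names these are differences among changes over time within a line. Stmn3 did not pass and did without replicate 1 (0.0268), Dpysl3 did not pass and did without replicate 3 (0.0238), and Plaur did not pass and did in DESeq2 (0.0272). The result of Plaur is in part set by the filter on low counts, which it passed through the vector 6 h and 3 d groups.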

How the results depend on the processing

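Of 126 results of the tested genes per setting, 124 kept their direction and side of the threshold with the replicate number as a block. The other 2, Lgals3 at vector 3 d against 6 h and L1cam at vector 10 d against 3 d, passed with the block (edgeR adjusted p = 0.0175 and 0.0238). Libraries of equal number deviated from their group means with r of -0.0791 to 0.342 (median 0.0917, 32 of 84 pairs over 0.1), and those of different number with a median of -0.0613 (11 of 168 over 0.1). As a hint from the data, 18 of 24 libraries were closest to their own number, but not every pair was over 0.1, and the numbers were not taken to pair the samples. The block gave 258 changed genes of all tested at vector 3 d against 6 h (147 without it) and 193 at α1ACT 3 d against 6 h (106). With no filter the first was 226. Fits of only the 6 libraries compared gave 160 genes at α1ACT 3 d against 6 h, 314 at vector 10 d against 24 h (744 in the full fit) and 63 at α1ACT 10 d against 24 h (462). They called 2 of the 9 genes in α1ACT against vector at 24 h, where the full fit called 4. At α1ACT 3 d against 6 h 1 of the 9 was called with RLE factors and 1 at a mean of at least 2 CPM, where the full fit called 2. Leaving out single libraries gave 33 to 247, 32 to 137, 253 to 899 and 38 to 814 changed genes at vector 3 d, α1ACT 3 d, vector 10 d and α1ACT 10 d against the earlier time, and 0 to 4, 0 to 3, 2 to 3 and 1 to 2 of the 9. For α1ACT against vector it gave 4 to 5, 2 to 4, 3 to 5 and 2 to 3 of the 9 at 6 h, 24 h, 3 d and 10 d, and 3 to 4 for the difference between times. Differences that changed sign were near 0 and did not pass in either form: Stmn3 in α1ACT against vector at 3 d (0.00235 with library sizes alone), Ncam1 in the same comparison (-0.00264 with RLE factors and -0.00270 in DESeq2) and Stmn2 at α1ACT 24 h against 6 h (-0.00257 with library sizes alone). Leaving out 1 library changed the sign of these uncalled values, given as lowest to highest log2 difference. L1cam ranged -0.00769 to 0.0968 (lines at 6 h), -0.00118 to 0.126 (lines at 3 d). Lgals3 ranged -0.192 to 0.0970 (lines at 24 h), -0.201 to 0.0426 (α1ACT 10 d against 24 h). Dpysl3 ranged -0.104 to 0.00237 (lines at 24 h), -0.0260 to 0.230 (lines at 10 d), -0.0788 to 0.0461 (α1ACT 10 d against 24 h). Plaur ranged -0.727 to 0.176 (lines at 24 h), -0.965 to 0.293 (lines at 10 d), -0.163 to 0.368 (vector 3 d against 6 h), -0.463 to 0.800 (vector 10 d against 24 h), -0.347 to 0.496 (α1ACT 10 d against 24 h). Ncam1 ranged -0.0376 to 0.0629 (lines at 3 d). Stmn3 ranged -0.00367 to 0.0582 (vector 3 d against 6 h), -0.104 to 0.00278 (vector 10 d against 24 h). Crmp1 ranged -0.0365 to 0.0160 (vector 3 d against 6 h), -0.0183 to 0.0837 (vector 10 d against 24 h), -0.0190 to 0.0914 (α1ACT 3 d against 6 h). Sprr1a ranged -0.0702 to 0.245 (vector 10 d against 24 h). Stmn2 ranged -0.000558 to 0.0485 (α1ACT 24 h against 6 h). Few counts limit what can be said of Gap43 and Plaur, whose groups held 5 to 94 summed counts.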
